A study of Mus musculus with 4 samples.

Results

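Neurexins, neuroligins, the leucine-rich repeat proteins Lrrtm1 and Lrrtm2 and the scaffolds Dlg2 and Dlg4 were examined in mouse embryonic brain with and without the transcription factors Sox4 and Sox11. The genes were chosen by symbol, as Nrxn2, Nrxn3, Nlgn1, Nlgn2, Nlgn3, Lrrtm1, Lrrtm2, Dlg2 and Dlg4, and every probe set that the array's annotation gives to exactly 1 of them was taken. These 9 genes, of 18193 genes with a symbol of their own on the array, had 26 probe sets. RNA was extracted from whole brains of mouse embryos of mixed 129SvJ/C57Bl/6J origin at embryonic day 14.5 and hybridised to Affymetrix arrays. The double-knockout group (dko) consisted of 2 arrays from embryos with Brn4::Cre and homozygous floxed alleles of Sox4 and Sox11. The control group consisted of 2 arrays from embryos with the same floxed alleles and no Cre listed. Brn4 is another name of Pou3f4, a POU-domain gene of the developing nervous system. Cells in whose lineage the driver was never active would keep both Sox genes. The 2 arrays of a group are labelled biological replicates without the number of embryos behind each. The p-values reflect only how far these arrays scattered. Each variance was drawn more from other probe sets of similar signal than from the probe set itself.

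Neurexins sit in the presynaptic membrane of neurons and bind across the synaptic cleft to neuroligins and to Lrrtm proteins in the postsynaptic membrane. Inside the postsynaptic cell, the PDZ domains of Dlg scaffolds bind the tails of neuroligins and of glutamate receptors and hold them at the synapse. In the mouse brain at mid-gestation most synapses have not yet formed, although young neurons already transcribe many of these genes. Sox4 and Sox11 are SoxC transcription factors, which act as neurons are born and mature.

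The 250 bases before the listed transcription start are printed for Lrrtm1, a member that changed, and for Nlgn2, a member that did not pass the test. They are the members with a single start in the RefSeq promoter table (GRCm38.p6), which listed 6 of the 9 genes. The Lrrtm1 window is chr6:77242227-77242476 on the plus strand and the Nlgn2 window is chr11:69837785-69838034 on the minus strand, each written 5′ to 3′ on the gene's strand.
Lrrtm1: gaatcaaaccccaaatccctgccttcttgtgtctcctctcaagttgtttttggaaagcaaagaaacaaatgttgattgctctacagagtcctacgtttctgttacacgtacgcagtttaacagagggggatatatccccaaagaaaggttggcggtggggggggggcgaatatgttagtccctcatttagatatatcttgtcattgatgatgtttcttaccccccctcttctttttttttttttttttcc
Nlgn2: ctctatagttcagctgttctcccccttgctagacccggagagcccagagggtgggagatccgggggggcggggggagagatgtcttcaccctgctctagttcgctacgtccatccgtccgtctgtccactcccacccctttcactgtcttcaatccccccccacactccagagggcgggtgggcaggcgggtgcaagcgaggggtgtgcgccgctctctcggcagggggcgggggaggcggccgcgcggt
GC made up 42% of the Lrrtm1 window and 67.6% of the Nlgn2 window. Neither held AACAAT or AACAAAG, words that SOX proteins can bind, on either strand, so no letters are in capitals. None of the 13 listed starts of the 6 genes held either word, against 13.8% of the windows of all 32851 listed starts. Nrxn2, Nlgn3 and Lrrtm2 were not listed, so Nlgn3 and Lrrtm2, which changed, were not searched.

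Before the members, the arrays were checked against their labels. All 6 tested Sox11 probe sets fell in the dko group, with log2 changes of -3.18 to -1.19. Of 6 tested Sox4 probe sets, 4 fell, with log2 changes of -2.69 to -1.09. The brightest did not pass, at 37277 and 38263 on the dko arrays and 36048 and 34819 on the control arrays (log2 change 0.09). Another rose, at 17454 and 16453 on the dko arrays and 5342 and 4255 on the control arrays (log2 change 1.83), so these 2 did not show the loss that the label names. The position of these probe sets relative to the floxed parts was not examined. Brain was the labelled tissue, and all 13 neuron markers were measured on every array with a lowest signal of 3446. They summed to 141706 and 136584 on the dko arrays and 171000 and 178835 on the control arrays. Array control 2 stood apart in sex-linked transcripts. At its brightest probe set Xist read 260 and 1670 on the dko arrays and 166 and 25215 on the control arrays, and Eif2s3y, on the Y chromosome, read 3890 and 3578 on the dko arrays and 3484 and 43.5 on the control arrays. Array dko 2 had more Xist than dko 1, with Eif2s3y near that of dko 1. Sex-linked signal was therefore uneven between the groups, and the labels give no sex. Its part in the changes of other genes was not tested. Nlgn3 lies on the X chromosome and is given with and without control 2.

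Most of the synaptic genes examined did not pass the test. Of the 26 probe sets, 23 had a mean signal high enough to be tested, and 3 of these were called at an adjusted p under 0.05. Lrrtm1 and Lrrtm2 rose at 1 probe set each, Nlgn3 fell at 1, and the other 20 did not pass. The called share was 13.0% of the tested member probe sets, against 23.2% of all 27022 tested probe sets (11.7% rose and 11.6% fell). Counted by gene at its brightest tested probe set, 2 of the 9 members rose (22.2%) and 1 fell (11.1%), against 16.3% and 11.0% of 12489 genes, so the members' share lay below the array's by probe set and not by gene. The groups did not overlap at 11 of the 23 probe sets (47.8%), against 62.9% of all tested probe sets. Without adjustment, 5 of the 23 had a p under 0.05, against 36.4% of all tested probe sets. The median log2 change of the 23 was -0.04, beside -0.01 over all tested probe sets. A log2 change here is dko minus control on the scale log2(signal + 16), and every adjusted p is from limma over all tested probe sets. These are bulk samples, in which fewer cells of a type and less RNA per cell cannot be told apart.

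**Figure D1:**
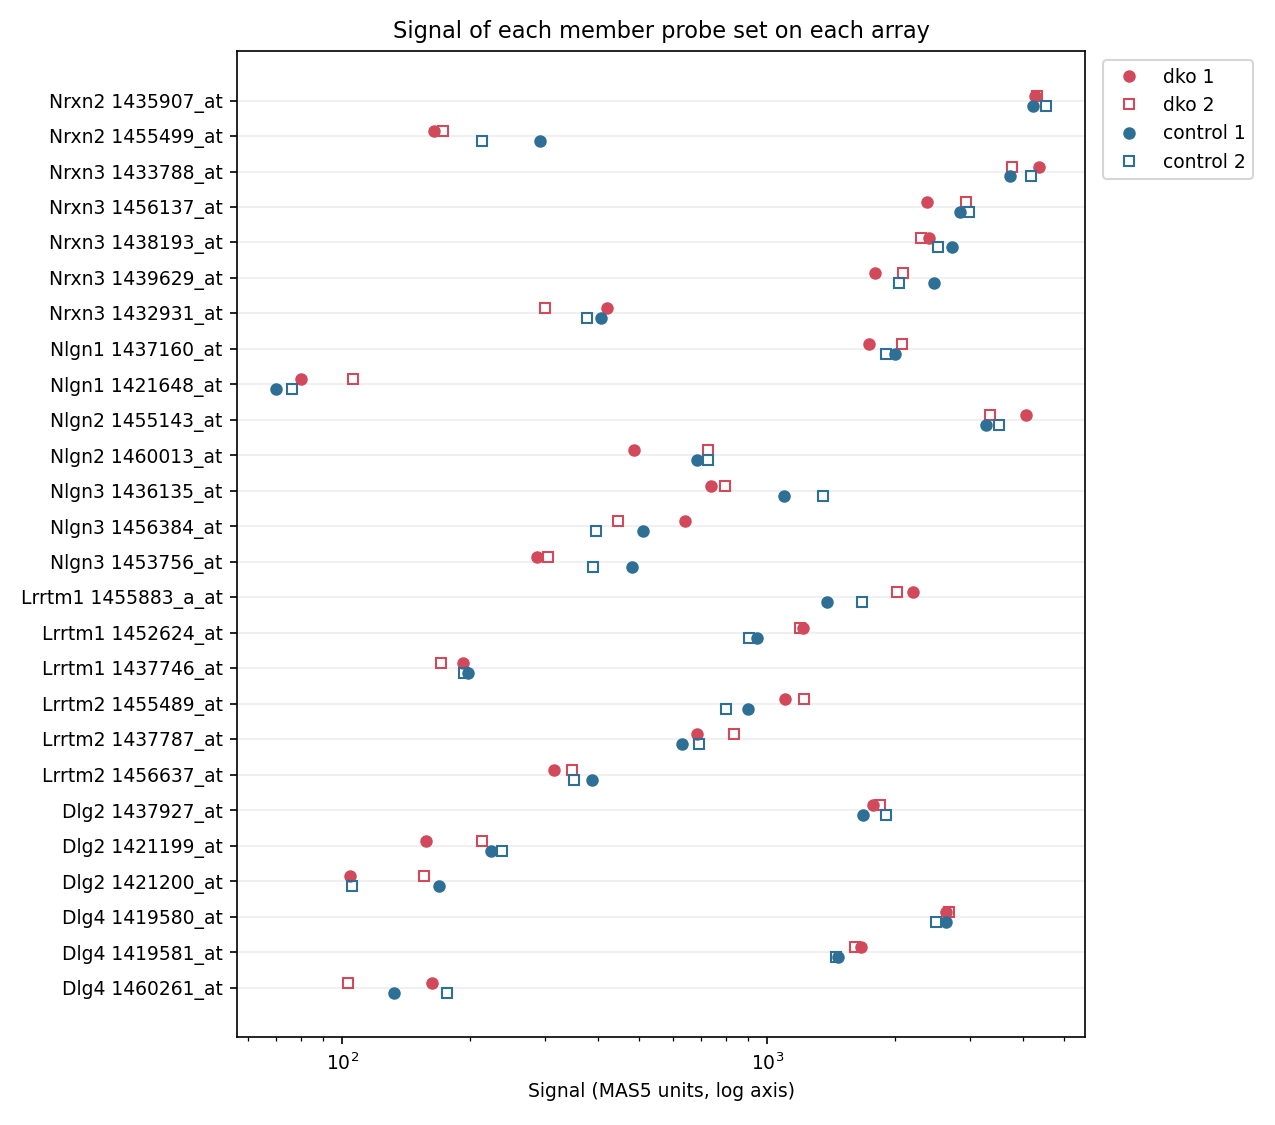
MAS5 signal (log axis) of each of the 26 member probe sets on the 2 dko arrays (red) and the 2 control arrays (blue), replicate 1 as a filled circle and replicate 2 as an open square. The groups overlap at 12 of the 23 tested probe sets, and the dko points lie left of the control points at Nlgn3 1436135_at and right of them at Lrrtm1 1455883_a_at.

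The neurexins were the presynaptic side of the set, and none of their 7 tested probe sets was called by limma, with 0 at an unadjusted p under 0.05, against 36.4% of all tested probe sets. At the brightest Nrxn2 probe set, 1435907_at, the signal was 4280 and 4306 on the dko arrays and 4213 and 4542 on the control arrays. Both dko arrays lay between the control arrays, and the log2 change was -0.03 (95% interval -0.22 to 0.17, adjusted p = 0.857). A dimmer Nrxn2 probe set, 1455499_at, read 165 and 173 on the dko arrays and 292 and 213 on the control arrays. Here both dko arrays were below both controls, but the change of -0.52 ± 0.26 (SE) did not pass (adjusted p = 0.173).

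Nrxn3 was read by 5 probe sets, all of them tested. The brightest, 1433788_at, gave 4373 and 3773 on the dko arrays and 3733 and 4186 on the control arrays. The groups overlapped, with a log2 change of 0.04 (95% interval -0.19 to 0.27, adjusted p = 0.823). The other 4 had log2 changes of -0.22 to -0.14, with adjusted p of 0.253 to 0.681. Only 1438193_at had separate groups, at 2410 and 2305 on the dko arrays and 2720 and 2524 on the control arrays (log2 change -0.15 ± 0.10, SE, adjusted p = 0.310).

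Neuroligins are postsynaptic adhesion proteins that bind neurexins. Of their 6 tested probe sets, 1 fell and 5 did not pass, while 11.6% of all tested probe sets fell and 11.7% rose. An unadjusted limma p under 0.05 was seen at 2 of the 6, against 36.4% of all tested probe sets. Nlgn1, which is enriched at excitatory synapses, had 1 tested probe set, 1437160_at. It read 1735 and 2081 on the dko arrays and 2002 and 1904 on the control arrays. The dko arrays lay on either side of the controls, and the log2 change was -0.04 (95% interval -0.30 to 0.23, adjusted p = 0.849). The other Nlgn1 probe set, 1421648_at, was below the limit for testing, at 80.1 and 106 on the dko arrays and 69.7 and 76.0 on the control arrays.

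Nlgn2, the neuroligin of inhibitory synapses, gave 4075 and 3353 on the dko arrays and 3281 and 3506 on the control arrays at 1455143_at. The groups overlapped, with a log2 change of 0.12 (95% interval -0.12 to 0.37, adjusted p = 0.457). At 1460013_at it read 486 and 724 on the dko arrays and 682 and 725 on the control arrays. This dimmer probe set had a change of opposite sign, -0.24 ± 0.19 (SE, adjusted p = 0.404), and the groups again overlapped.

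Nlgn3, found at excitatory and inhibitory synapses, was the member that fell. At its brightest probe set, 1436135_at, the signal was 739 and 795 on the dko arrays and 1097 and 1352 on the control arrays. Both dko arrays lay below both controls, with means of 767 ± 39.6 in dko and 1225 ± 180 in controls (SD, n = 2 each). Signal on the log2 scale fell by 0.66 ± 0.14 (SE, 95% interval -0.98 to -0.34, limma adjusted p = 0.00907), which is 1.58-fold lower in dko. Without dko 1 the change was -0.61 and no longer passed (adjusted p = 0.0768). Without control 2, the array with high Xist, it was -0.51 and still passed (adjusted p = 0.0468). At 1453756_at Nlgn3 read 287 and 304.5 on the dko arrays and 482 and 388 on the control arrays. These groups were also separate, with a log2 change of -0.53 ± 0.20 that did not pass (SE, adjusted p = 0.0787).

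The third Nlgn3 probe set, 1456384_at, differed from the other 2. It read 641.5 and 445 on the dko arrays and 510 and 395 on the control arrays, with overlapping groups and a log2 change of 0.24 (95% interval -0.23 to 0.71, adjusted p = 0.446). Against 1453756_at the log2 ratio of 1436135_at was 1.32 and 1.34 on the dko arrays and 1.16 and 1.76 on the control arrays, with overlap. Against 1456384_at it was 0.20 and 0.82 on the dko arrays and 1.08 and 1.73 on the control arrays, lower on both dko arrays than on either control array, a difference between probe sets that was not tested. Which transcript ends they read was not examined.

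Lrrtm proteins are postsynaptic ligands of neurexins that act mainly at excitatory synapses. Of the 6 tested probe sets of Lrrtm1 and Lrrtm2, 2 rose and 4 did not pass, while 11.7% of all tested probe sets rose. An unadjusted limma p under 0.05 was seen at 3 of the 6, against 36.4% of all tested probe sets. At 1455883_a_at, Lrrtm1 read 2208 and 2024 on the dko arrays and 1379 and 1674 on the control arrays. Both dko arrays were above both controls, with means of 2116 ± 130 in dko and 1527 ± 209 in controls (SD, n = 2 each). The log2 change was 0.47 ± 0.13 (SE, 95% interval 0.19 to 0.75, limma adjusted p = 0.0217), or 1.39-fold higher in dko. The call was lost without dko 1 (0.41, adjusted p = 0.141), dko 2 (0.53, adjusted p = 0.0719) or control 1 (0.33, adjusted p = 0.136).

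The second Lrrtm1 probe set, 1452624_at, read 1211 and 1197 on the dko arrays and 947 and 905 on the control arrays. The groups were separate in the same direction, and the log2 change of 0.37 ± 0.12 (SE, adjusted p = 0.0525) did not pass. The dimmest, 1437746_at, read 192 and 171 on the dko arrays and 197 and 194 on the control arrays (log2 change -0.10, 95% interval -0.66 to 0.46, adjusted p = 0.814). Here both dko arrays were below both controls, opposite to the other Lrrtm1 probe sets. The log2 ratio of 1455883_a_at to 1437746_at was 3.42 and 3.45 on the dko arrays and 2.71 and 3.01 on the control arrays, and the groups were separate. Against 1452624_at the ratio was 0.86 and 0.75 on the dko arrays and 0.53 and 0.88 on the control arrays, with overlap.

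Lrrtm2 read 1100 and 1221 on the dko arrays and 904 and 799 on the control arrays at 1455489_at. The groups did not overlap, with means of 1160 ± 85.7 in dko and 851 ± 74.2 in controls (SD, n = 2 each). The log2 change was 0.44 ± 0.13 (SE, 95% interval 0.14 to 0.74, limma adjusted p = 0.0393), or 1.36-fold higher in dko. Without dko 1 it was 0.51 (adjusted p = 0.0910), without dko 2 it was 0.37 (adjusted p = 0.191) and without control 2 it was 0.35 (adjusted p = 0.157). The other Lrrtm2 probe sets had log2 changes of 0.19 at 1437787_at (adjusted p = 0.410), where the groups overlapped, and -0.15 at 1456637_at (adjusted p = 0.619). At 1456637_at it read 315 and 347 on the dko arrays and 386 and 351 on the control arrays, so both dko arrays were below both controls. The log2 ratio of 1455489_at to 1456637_at was 1.75 and 1.77 on the dko arrays and 1.19 and 1.15 on the control arrays. To 1437787_at it was 0.67 and 0.54 on the dko arrays and 0.51 and 0.20 on the control arrays. Both ratios were higher on the dko arrays with no overlap, and differences between probe sets of Lrrtm1 and Lrrtm2 were not tested.

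**Figure D2:**
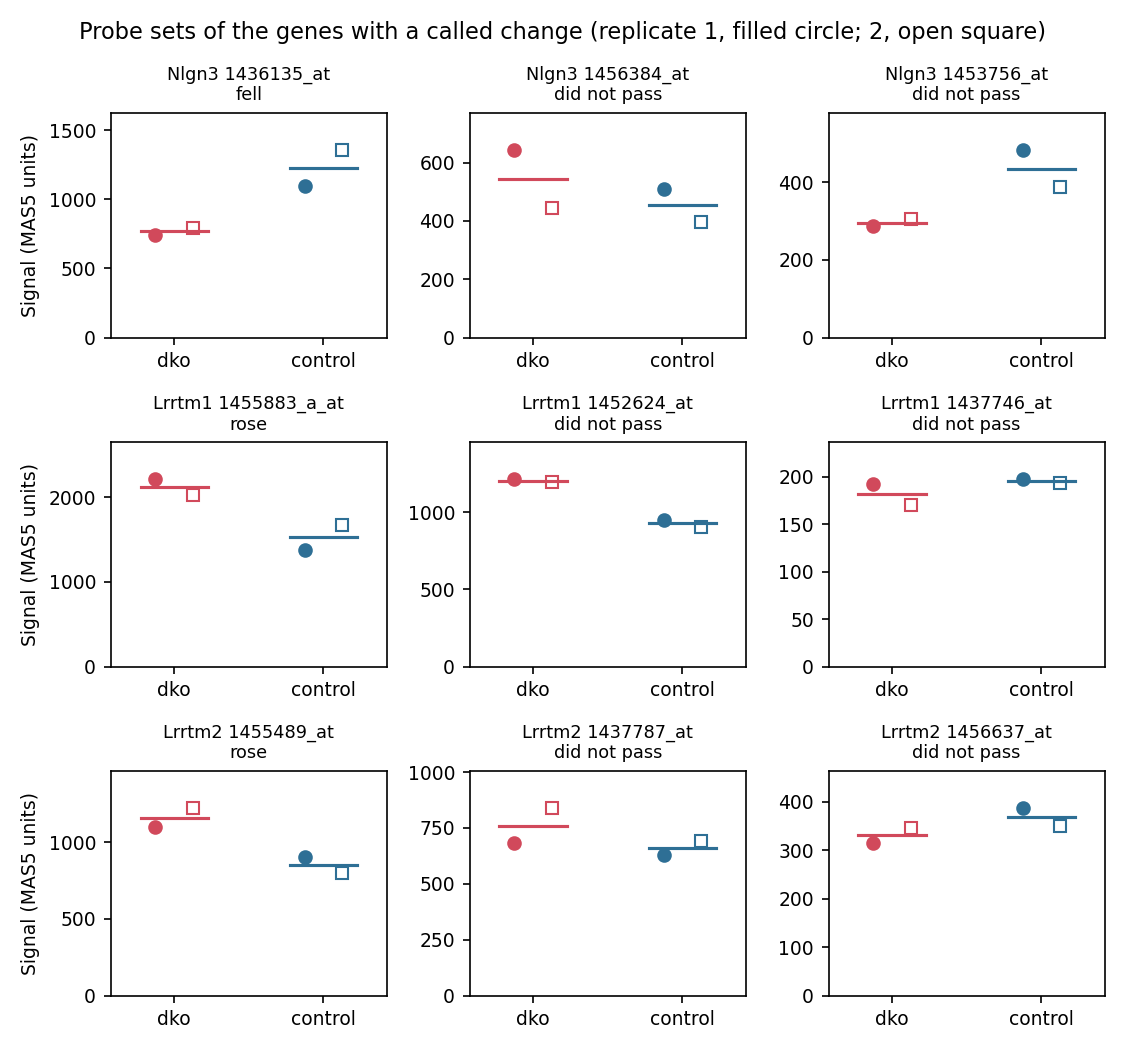
MAS5 signal on each array at all probe sets of Nlgn3, Lrrtm1 and Lrrtm2, dko left and control right, with bars at the means of 2 arrays and each vertical axis starting at 0. The left column holds the probe set that was called in each gene, and the other columns hold probe sets that did not pass, of which some lie in the same direction and some in the other.

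Dlg2 (PSD-93) and Dlg4 (PSD-95) are membrane-associated scaffolds of the postsynaptic density. None of their 4 tested probe sets was called by limma, with 0 at an unadjusted p under 0.05, against 36.4% of all tested probe sets. Dlg4 read 2635 and 2683 on the dko arrays and 2642 and 2494 on the control arrays at 1419580_at. The groups overlapped, and the log2 change was 0.05 (95% interval -0.17 to 0.27, adjusted p = 0.751). At 1419581_at it read 1664 and 1610.5 on the dko arrays and 1466 and 1454 on the control arrays. Both dko arrays were higher there, by a log2 change of 0.16 ± 0.11 that did not pass (SE, adjusted p = 0.321).

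Dlg2 read 1774 and 1843 on the dko arrays and 1684 and 1904 on the control arrays at 1437927_at. Both dko arrays lay between the controls (log2 change 0.01, 95% interval -0.24 to 0.27, adjusted p = 0.946). At 1421199_at it read 158 and 213 on the dko arrays and 224 and 238 on the control arrays (log2 change -0.31 ± 0.26, SE, adjusted p = 0.423). Both dko arrays lay below both controls there, but the change did not pass. The remaining probe sets, 1421200_at of Dlg2 and 1460261_at of Dlg4, lay below the limit for testing, with signals of 104 to 156 and 103 to 163 on the dko arrays and of 106 to 169 and 132 to 177 on the control arrays.

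At the brightest probe sets of the 6 genes without a call, the 95% intervals ran from -0.30 at the lowest to 0.37 at the highest. These bound the change at those probe sets and do not show equal levels. The interval at the dimmer Nrxn2 probe set 1455499_at was wider and reached -1.10.

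**Figure D3:**
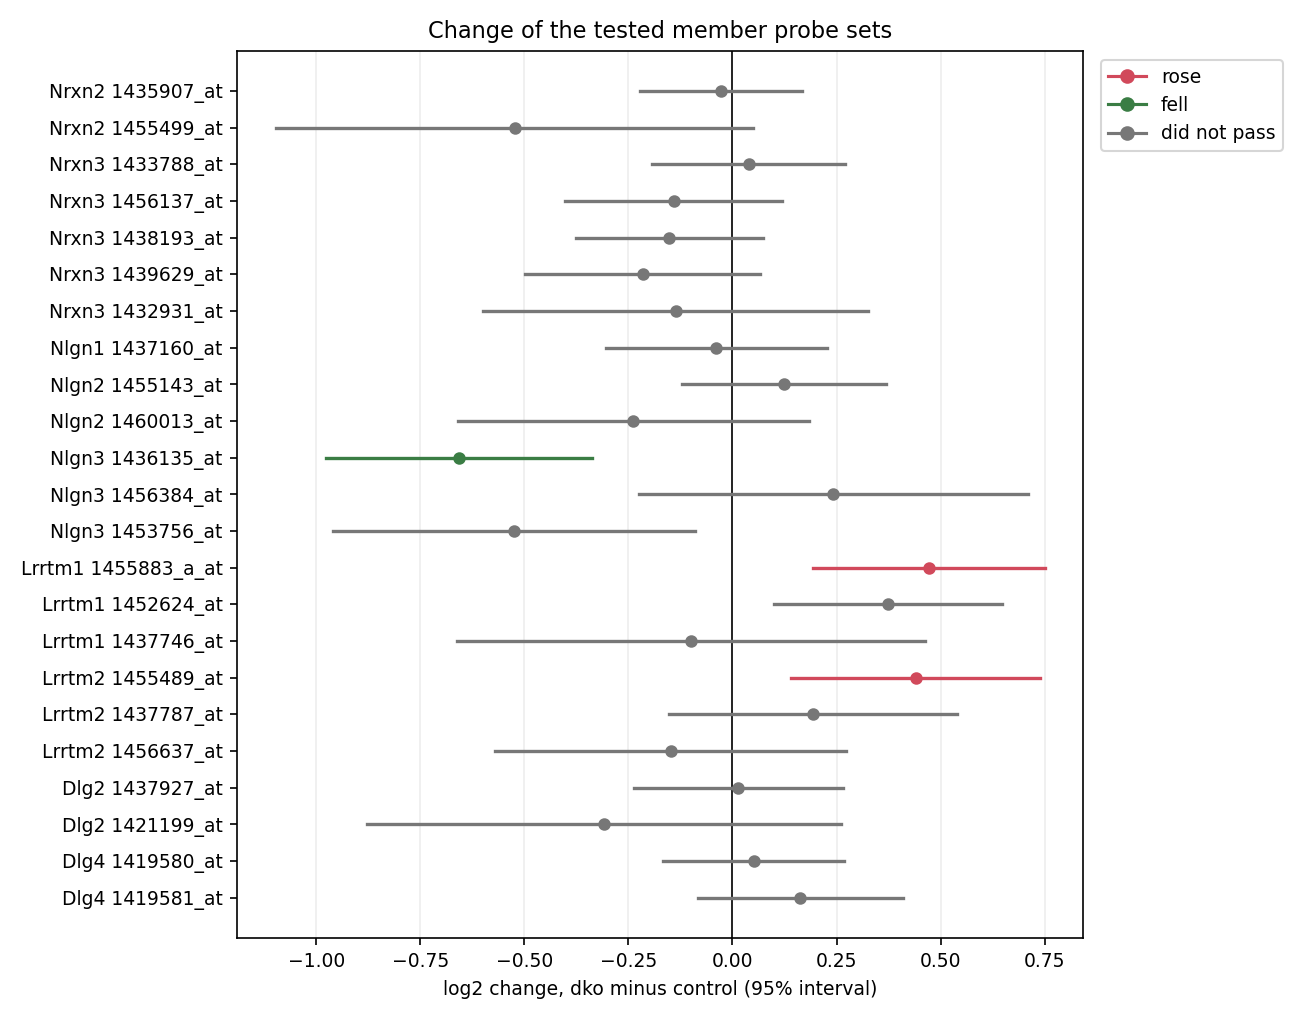
log2 change (dko minus control) with its 95% interval at the 23 tested member probe sets, coloured by whether the probe set rose, fell or did not pass. Intervals of Lrrtm1 1455883_a_at and Lrrtm2 1455489_at lie above 0 and that of Nlgn3 1436135_at lies below 0. Lrrtm1 1452624_at and Nlgn3 1453756_at, whose intervals also exclude 0, did not pass after adjustment.

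Markers of several cell types moved between the groups. Over all 12489 genes at their brightest tested probe set, 16.3% rose and 11.0% fell, with a median log2 change of 0.06. Of 13 neuron markers, 8 fell and 2 rose, with a median log2 change of -0.38, and none was listed at 0. All 11 markers of microglia and macrophages rose, with a median of 1.68 and summed signals of 25558 and 23096.5 on the dko arrays and 6737 and 7736 on the control arrays. Among radial glia and progenitor markers, 5 of 10 rose and 0 fell (summed signals of 92184 and 95091 on the dko arrays, 84708 and 79179 on the control arrays). Of 11 endothelial and mesenchymal markers 7 rose (42690 and 43790 on the dko arrays, 32369 and 33419 on the control arrays). The part of these shifts in the changes of Nlgn3, Lrrtm1, Lrrtm2 and the genes that follow was not tested.

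Other trans-synaptic adhesion genes moved more often down than up. Of 45 listed, 43 were measured, each at its brightest tested probe set, and 10 fell (23.3%), 4 rose (9.30%) and 29 did not pass, with a median log2 change of -0.19. Over all 12489 genes so measured, 11.0% fell and 16.3% rose, with a median of 0.06. The list, like the other lists and the members, was chosen with earlier results of these data known, so these shares are descriptive. Among the genes that fell, Il1rapl1 (-0.62) and Tenm1 (-0.34) lie on the X chromosome. Without control 2, the array with high Xist, their log2 changes were -0.45 and -0.27, and both calls were lost. Neurexophilins are secreted ligands of alpha-neurexins. Nxph1 read 785 and 822 on the dko arrays and 1973 and 1862 on the control arrays (log2 change -1.24 ± 0.12, SE, adjusted p = 0.000119), and its 1 other probe set fell too. Nxph2 read 211 and 171 on the dko arrays and 422 and 442 on the control arrays (log2 change -1.12 ± 0.21, adjusted p = 0.00447). Nxph4 moved in the opposite direction, at 645 and 598 on the dko arrays and 443 and 425 on the control arrays (log2 change 0.50 ± 0.16, adjusted p = 0.0445), a call lost when any 1 array was left out (0.45 to 0.55).

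Cbln1, a secreted protein that bridges neurexins to the glutamate receptor subunit GluD2, fell. It read 1832 and 1888 on the dko arrays and 3448 and 3482.5 on the control arrays (log2 change -0.89 ± 0.10, SE, adjusted p = 0.000219), and 1 of its 2 other probe sets fell too. Each dko array was close to the other and well below both controls. Il1rap (0.61), a ligand of presynaptic receptor phosphatases, Clstn2 (0.49), a calsyntenin, and Dag1 (0.36), dystroglycan, were the others that rose. Of further tested probe sets, 0 of 2 were called for Il1rap and 0 of 3 for Dag1, while the 1 other of Clstn2 rose. Il1rap lost its call without dko 1 (0.68), dko 2 (0.55) or control 2 (0.51), Clstn2 without dko 1 (0.33), and Dag1 without dko 1 (0.25) or control 2 (0.31). Without control 2, 6 genes of this list fell and 1 rose, and without dko 1, 9 fell and 0 rose.

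Among other postsynaptic scaffold genes, 26 of 32 were measured, and 6 rose (23.1%), 6 fell (23.1%) and 14 did not pass, with a median log2 change of 0.03. The shares over all 12489 genes were 16.3% and 11.0%, with a median of 0.06. Kalrn, a guanine nucleotide exchange factor of dendritic spines, read 2199 and 1546 on the dko arrays and 4288 and 4528 on the control arrays (log2 change -1.25 ± 0.15, SE, adjusted p = 0.000332), and 4 of its 6 other probe sets fell. Magi1 (-0.89), a multi-PDZ scaffold, and Homer3 (-0.86), which binds metabotropic glutamate receptors, also fell. Of 4 other Magi1 probe sets 2 fell, and Homer3 had 0 others tested. Homer2, the paralog of Homer3, rose instead, at 2441 and 2718 on the dko arrays and 1395 and 1643 on the control arrays (log2 change 0.76 ± 0.12, adjusted p = 0.00169). Baiap2 (0.74), an actin-regulating protein of the postsynaptic density, and Lin7b (0.84), a PDZ protein, rose as well. Of further tested probe sets, 1 of 1 rose for Homer2, 2 of 3 for Baiap2 and 1 of 3 for Lin7b. Homer3 did not pass without dko 2 (-0.82), nor did Baiap2 without dko 1 (0.78) or dko 2 (0.71) or Lin7b without dko 1 (0.93) or dko 2 (0.75), and 2 genes of this list rose without dko 1.

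Of 3 Dlg genes outside the set, singled out after their values were seen, 1 rose, 1 fell and 1 did not pass. Dlg1 (SAP97) read 3600 and 3499 on the dko arrays and 2379 and 2521 on the control arrays, a rise of 0.53 ± 0.10 on the log2 scale (SE, adjusted p = 0.00321) that passed with each array left out. Dlg3 (SAP102), on the X chromosome, read 1712 and 1543 on the dko arrays and 2110 and 2205 on the control arrays (log2 change -0.40 ± 0.11, adjusted p = 0.0245). The Dlg3 call was lost without dko 1 (-0.48), dko 2 (-0.33), control 1 (-0.44) or control 2 (-0.37). Dlg5 had a log2 change of -0.21 that did not pass (adjusted p = 0.187). Whether these genes differed in change from Dlg2 and Dlg4 was not tested.

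Of 16 presynaptic genes listed as neurexin partners or release proteins, some of which the scaffold list also holds (Cask and the Lin7 genes), 15 were measured. Of these, 2 rose (13.3%), 2 fell (13.3%) and 11 did not pass, with a median log2 change of -0.13. These shares were near those over all 12489 genes, of which 16.3% rose and 11.0% fell. Apba2 (Mint2), an adaptor that binds neurexin tails, read 1239 and 1232 on the dko arrays and 1913 and 2193 on the control arrays (log2 change -0.72 ± 0.12, SE, adjusted p = 0.00199). Lin7a, which forms a complex with Cask and Mint proteins, fell (-0.46, adjusted p = 0.0136), while its paralog Lin7b rose. Of 2 other Lin7a probe sets 0 were called, and of 3 other Lin7b probe sets 1 rose. Lin7a did not pass without dko 1 (-0.34) or control 2 (-0.39), and Lin7b not without dko 1 (0.93) or dko 2 (0.75). Syt1, the calcium sensor of vesicle release, rose at its brightest probe set (0.46, adjusted p = 0.00484) and fell at another, and the rise was 0.40 and did not pass without dko 1. Syt1 is also one of the neuron markers. Without dko 1, 0 of these genes rose and 1 fell, and without control 2, 2 rose and 1 fell.

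**Figure D4:**
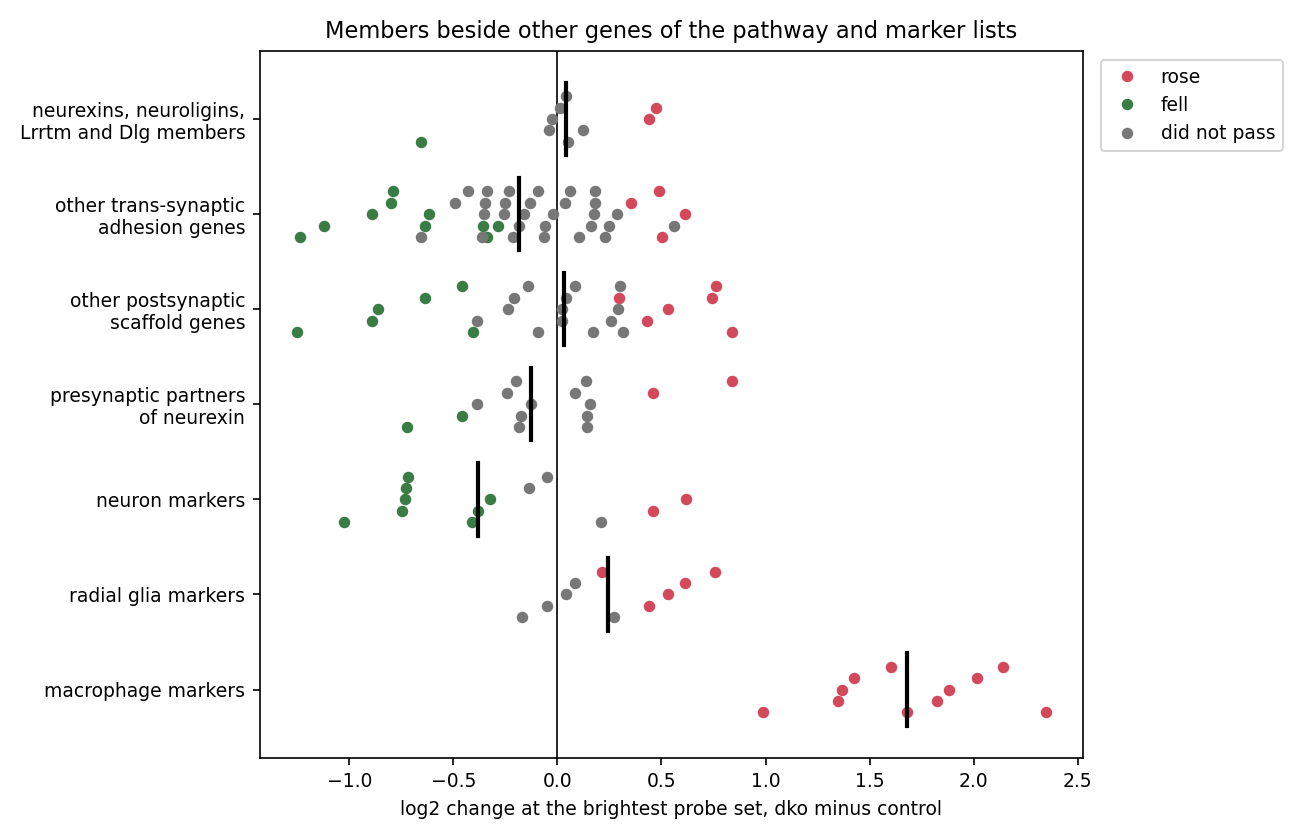
log2 change (dko minus control) at the brightest tested probe set of each gene, for the 9 members, the lists of other synaptic genes and 3 marker lists, with a black bar at each list's median and colours for rose, fell and did not pass. Members lie between -0.66 and 0.47 and 6 of the 9 did not pass, neuron markers have a median of -0.38 and macrophage markers one of 1.68.

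The calls of the 3 member genes were not equally steady. The fall of Nlgn3 at 1436135_at passed in 13 of 14 other settings, of which 1 was a looser threshold of 0.1, with adjusted p of 0.00190 to 0.0768. The rises of Lrrtm1 at 1455883_a_at and Lrrtm2 at 1455489_at each passed in 9 of these 14. Without the filter on low signals Lrrtm1 had an adjusted p of 0.0511 and Lrrtm2 of 0.0731, and without the variance trend they had 0.0912 and 0.0850. In these settings the sign of each of the 3 changes was kept.

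**Figure D5:**
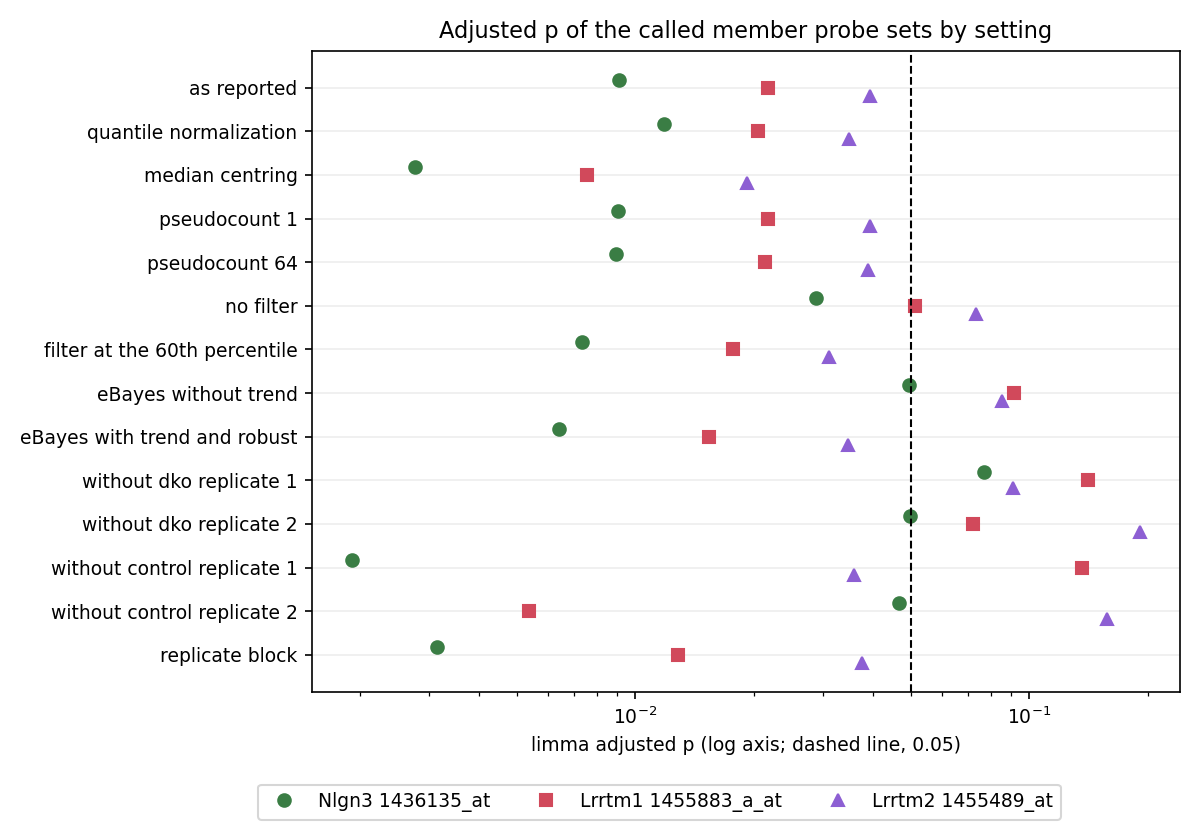
limma adjusted p (log axis) of the called probe sets of Nlgn3, Lrrtm1 and Lrrtm2 as reported and under 13 alternative fits, with a dashed line at 0.05. Nlgn3 lies right of the line only without dko replicate 1, while Lrrtm1 and Lrrtm2 lie right of it in 5 settings each.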

How the data were processed

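Each deposited value is a probe set intensity, not logged. The submitters' processing notes name MAS5 5.0, and the build was not given in the sources used here. Each array had a trimmed mean (2% off each end) of 1000. Such scaling removes a shift shared by most transcripts. Of 45101 probe sets 64 controls were left out. Signals were taken as log2(signal + 16), which understates changes of dim genes. Probe sets with a mean above the 40th percentile (signal 154.6) were tested, dko minus control, with limma 3.58.1 in R 4.3.3 (lmFit, eBayes with variance trend, residual degrees of freedom 2), Benjamini-Hochberg adjustment over 27022 probe sets and a threshold of 0.05. The variance of a probe set was moderated toward that of probe sets of similar signal, with 8.33 prior degrees of freedom. The steps were run on data simulated with variances that follow signal, as the fit assumes, which checks the steps and not the calls. Symbols came from the platform annotation, and all 9 genes matched RefSeq IDs. Named genes are the members, Sox4, Sox11, Pou3f4 (2 tested probe sets, 0 called), and up to 3 genes per list and direction, the largest changes among those past the threshold. Dlg1, Dlg3, Dlg5, Dag1, Il1rapl1, Tenm1, Xist and Eif2s3y were added after their values were seen. Among other markers fixed, 1 of 6 oligodendrocyte genes rose and 1 fell, 1 of 4 astrocyte genes rose and 0 of 4 erythroid genes changed. Over all genes tested, 16.3% rose and 11.0% fell. The members and lists were chosen with earlier results of these data known. The number of arrays limits precision. Alternatives were other normalizations, pseudocounts of 1 and 64, other filters, other variance models, a threshold of 0.1, averaged probe sets, single arrays left out and the replicate number as a block.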

Additional observations from a re-analysis of the deposited data

How the results depend on the processing

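With an array left out, the group of 1 that remains is assumed to scatter like the other group. The changed probe sets, 6277 as reported, numbered 3114 without the variance trend and 3132 to 5422 with 1 array left out. Member probe sets that rose, 2 as reported, were 0 without the filter, 0 without the trend and 0 to 1 with 1 array left out. Those that fell, 1 as reported, were 2 at a threshold of 0.1 and 0 to 1 with 1 array left out. Other adhesion genes that rose, 4 as reported, were 1 without the filter, 1 without the trend, 7 at a threshold of 0.1 and 0 to 4 with 1 array left out. Those that fell, 10 as reported, were 6 without the trend, 16 at a threshold of 0.1 and 6 to 9 with 1 array left out. Scaffold genes that rose, 6 as reported, were 2 to 5 with 1 array left out. Presynaptic genes that rose, 2 as reported, were 1 with the filter at the 60th percentile, 1 without the trend, 1 with a gene's probe sets averaged and 0 to 2 with 1 array left out, and those that fell were 1 without the trend and 1 to 3 with 1 array left out. The cause of these shifts was not tested, except that a looser threshold admits more calls and a left-out array leaves fewer samples by construction. Signs turned only at member probe sets that were not called. Under median centring the log2 change was 0.014 at Nrxn2 1435907_at and 0.0025 at Nlgn1 1437160_at. With 1 array left out the ranges were -0.081 to 0.027 at Nrxn2 1435907_at, -0.067 to 0.15 at Nrxn3 1433788_at, -0.30 to 0.014 at Nrxn3 1456137_at, -0.37 to 0.097 at Nrxn3 1432931_at, -0.17 to 0.091 at Nlgn1 1437160_at, -0.016 to 0.26 at Nlgn2 1455143_at, -0.52 to 0.042 at Nlgn2 1460013_at, -0.014 to 0.50 at Nlgn3 1456384_at and -0.074 to 0.10 at Dlg2 1437927_at. The replicate numbers gave no sign of pairing (r = 0.0028 between deviations of same-numbered arrays), and with the replicate block 6844 probe sets changed and 2 member probe sets rose and 1 fell, as without it.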
